A study of Rattus norvegicus with 12 samples.

Results

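The trypsinogens, their relatives among the trypsin-like proteases and the inhibitors that hold trypsin in check were followed through the rat pancreas in diabetes and under tungstate. The members were taken by gene symbol from a list of 7 genes: 1810009J06Rikl, Prss1, Prss2, Prss3, Spink1, Spink3 and Klk1. Of these, 5 genes had a probe set that carried no other symbol, and they were measured by 7 of the 15866 probe sets tested, because Spink1 had 3. Prss3 and Spink3 had no probe set under those symbols. The RefSeq gene table, whose assembly is GRCr8, lists a gene Prss3 but also gives that symbol as a synonym of Prss3b, and it gives Spink3 as a synonym of both Spink1 and its relative Spink1l, and Prss3b and Spink1l are described among the related genes. The genes were chosen by family and with the log2 intensities of all 4 groups already known, and the rule has no threshold. 1810009J06Rikl stood among the largest rises in the diabetic arrays, so its selection on that rise is assumed and its difference between diabetic and healthy untreated arrays is given as a description without a test.

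Trypsinogens are made by the acinar cells of the exocrine pancreas, stored in zymogen granules and released into the duodenum, where enteropeptidase cuts off a short peptide and turns them into trypsin. Trypsin then activates the other digestive zymogens, such as chymotrypsinogen, proelastases and procarboxypeptidases. Trypsin that forms inside the gland is held back by the Kazal-type inhibitor Spink1, and premature trypsin activity is known as an early event in pancreatitis.

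Pooled pancreas RNA from 3 male Wistar rats went onto each Affymetrix RAE230-A array, and there were 12 arrays, 3 for every one of 4 groups. The healthy untreated rats (HU) and the diabetic untreated rats (DU) had no tungstate and were kept for 5 to 6 weeks. The healthy treated rats (HT) and the diabetic treated rats (DT) drank sodium tungstate, given in the labels as 0.7 g/L for 1 week and 2 g/L for the following 4 to 5 weeks, whereas the methods give 2 mg/ml throughout. Diabetes was induced in DU and DT with streptozotocin, a toxin that enters beta cells and destroys them, so that HU and HT had neither the toxin nor diabetes and the effects of these cannot be told apart. Values are log2 intensities from RMA, a method that corrects, normalizes and summarizes the probes of a probe set, and the level of a probe set cannot be set against that of another. The comparisons were DU vs. HU, DT vs. HU, DT vs. DU and HT vs. HU, and the interaction was the difference between the last 2, that is DT vs. DU minus HT vs. HU. A probe set passed the test where the Benjamini-Hochberg adjusted p of limma over the 15866 probe sets was under 0.05.

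Array medians lay between 6.63 and 6.70, and correlations between arrays lay between 0.976 and 0.995. The arrays came from 3 chip lots and were scanned on 6 days. Lot 1 held DU1, DU2, DT1, DT2 and HU3, lot 2 held HU1, HU2, HT1 and HT2, and lot 3 held HT3, DU3 and DT3. Scan day 1 held DT1, DT2 and DU1, scan day 3 held HT1, HT2 and HU3, and scan day 5 held HT3 and DT3. Neither DU nor DT shared a scan day with HU. Of the 7 acinar markers, Amy2a3 (pancreatic amylase) fell by 5.18 in DU vs. HU and rose by 5.01 in DT vs. DU on the log2 scale, and the other 6 did not pass the test in either. The summed level of the acinar markers ran from 16.69 to 16.72 for HU, 16.70 to 16.74 for HT, 16.55 to 16.60 for DU and 16.69 to 16.75 for DT. Cpa1, Cel, Pnlip, Ctrb1 and Cela1 lay at most 0.57 log2 units below the brightest probe set of their array, near the top of the scale. A change in them could be missed. They dominate the sum, which is a description and does not show that the acinar content was stable. Of the 5 beta cell probe sets, 4 fell in DU vs. HU, with Ins2 lower by 4.71 on the log2 scale. In tissue RNA, fewer cells of a type and less RNA per cell cannot be told apart.

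In the RefSeq annotation the trypsinogen genes lie together on chromosome 4, on both sides of variable segments of the T cell receptor beta locus. The stretch from Prss58 to Prss1 holds 29 genes, of which 12 are protein coding, 14 are V segments and 3 are pseudogenes. The array measured 4 of the 12 protein-coding genes. 1810009J06Rikl, for which RefSeq gives the synonyms P23 and Try4, and Prss3b lie on one side of the V segments, with 1 pseudogene between them, and Prss2 and Prss1 lie on the other side. These genes are close copies of each other, so that a probe set can take up transcripts of a relative, and the values of single trypsinogens are uncertain to that extent.

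The promoters of Prss2 and Prss1 are shown because Prss2 passed the test between the diabetic and the healthy untreated arrays while Prss1 did not. The call of Prss2 was lost with a block for chip lot or scan day and without single arrays. Prss1 lay near the top of the intensity scale, so that a difference between these genes was not established. Any link of the sequences to the values was not tested. The acinar factor PTF1, whose subunit Ptf1a is measured on the array, recognises an E-box (CANNTG) next to a box of the type TTTCCC. The stretches run from 180 to 31 bases before the RefSeq start on the plus strand of GRCr8, at chr4:71244784-71244933 for Prss2 and chr4:71331069-71331218 for Prss1. Capitals mark CANNTG and TTTCCC on either strand.
Prss2: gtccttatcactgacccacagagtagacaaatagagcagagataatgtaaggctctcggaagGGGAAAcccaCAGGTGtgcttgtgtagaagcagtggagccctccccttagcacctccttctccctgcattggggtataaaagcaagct
Prss1: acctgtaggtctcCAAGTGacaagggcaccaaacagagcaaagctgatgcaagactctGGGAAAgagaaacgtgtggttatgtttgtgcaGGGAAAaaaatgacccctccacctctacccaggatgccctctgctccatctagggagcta
In Prss2 the E-box CAGGTG began 108 bases before the start and GGGAAA, the reverse complement of TTTCCC, began 118 bases before it, so that both starts lay within 25 bases of each other. In Prss1 there were 3 E-boxes within 250 bases before the start, at 223, 181 and 167 bases, and GGGAAA at 122 and 90 bases, and no such pair. Among 33469 rat promoters searched over the same 250 bases and both strands, 65.5% held CANNTG, 22% held TTTCCC and 4.07% held a pair with starts at most 25 bases apart. The promoters of Spink1, Klk1, Prss3b and Spink1l held no pair in that window. A match to these letters is a description of the sequence and not a site.

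Among the trypsinogens, 1810009J06Rikl, which encodes a trypsin-like protease, differed most between the diabetic and the healthy arrays. Its log2 intensity was 10.35, 11.45 and 10.62 on the HU arrays and 10.52, 11.03 and 10.60 on the HT arrays. It was 13.85, 13.84 and 13.99 on the DU arrays and 13.52, 12.85 and 12.95 on the DT arrays. All 6 diabetic arrays lay above all 6 healthy arrays, the DT arrays lay below the DU arrays, and HU and HT overlapped. Arrays that do not overlap were found for 29.4% of all probe sets between DU and HU, for 21.1% between DT and HU and for 11.6% between HT and HU. The group means were 10.81 ± 0.57 in HU, 10.72 ± 0.27 for HT, 13.89 ± 0.083 in DU and 13.11 ± 0.36 in DT (SD, n = 3 arrays). As a description, the DU mean exceeded the HU mean by 3.09 on the log2 scale, or 8.51-fold, which ranked 3 among the rises of all probe sets. Above it stood Tdh, a threonine dehydrogenase, at 4.21 and a probe set without a gene symbol at 3.58. The DT mean exceeded the HU mean by 2.30, or 4.92-fold, the largest rise of any probe set in that comparison. These sizes and ranks rest on the values assumed to have selected the gene. They and the batch differences that follow are no support for a rise. Within chip lot 1, DU1 and DU2 lay 3.23 above HU3, and DT1 and DT2 lay 2.57 above it. In a fit that blocked on scan day the differences were 3.17 and 2.5, although no scan day compares DU or DT with HU directly. The DU arrays lay 0.46 to 0.72 log2 units below the brightest probe set of their array, against 3.00 to 4.12 for HU and 1.01 to 1.63 for DT, so that DU stood near the top of the scale and the size of its differences is uncertain to that extent.

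**Figure D1:**
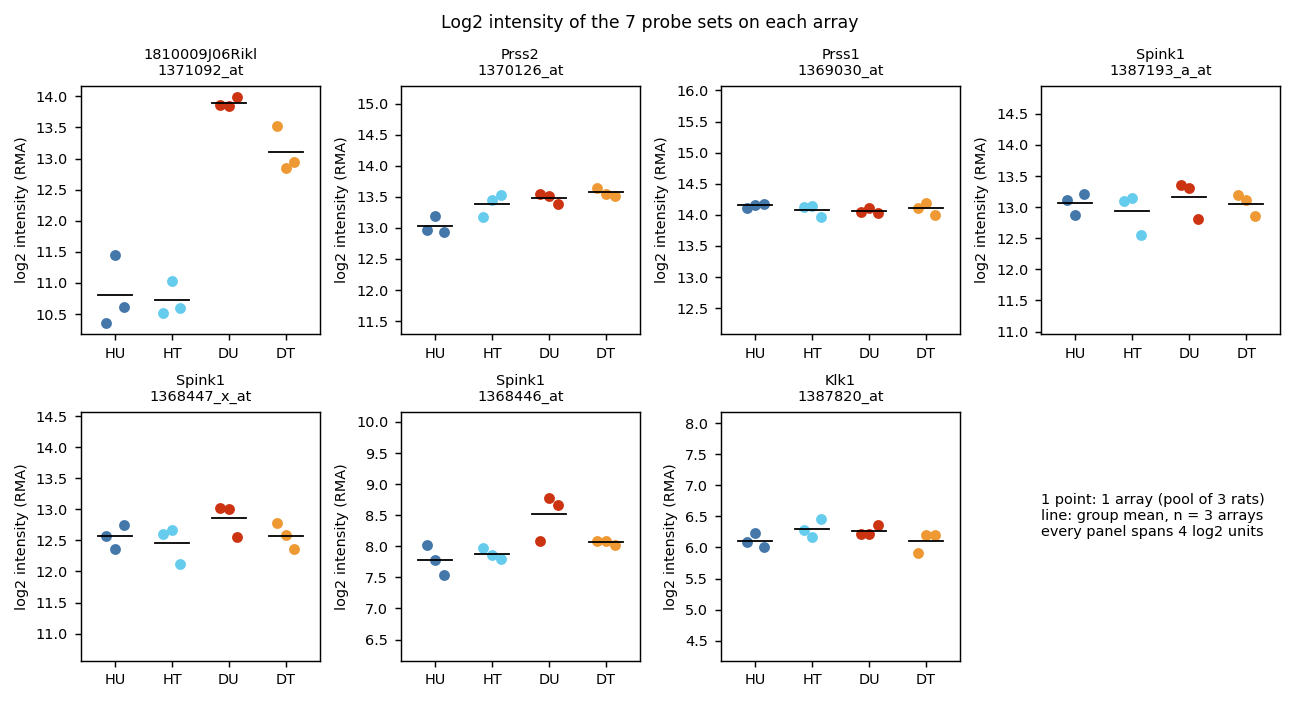
Log2 intensity (RMA, vertical axis) of each of the 7 probe sets on the 12 arrays, by group (horizontal axis: HU, healthy untreated; HT, healthy treated; DU, diabetic untreated; DT, diabetic treated). Points are arrays, lines are means of 3 arrays, and every panel spans 4 log2 units. 1810009J06Rikl lay at 13.84 to 13.99 in DU against 10.35 to 11.45 in HU, while the Prss1 arrays all lay between 13.96 and 14.19.

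In treated diabetic rats 1810009J06Rikl lay between the untreated diabetic and the healthy arrays, closer to the former. The DT mean was 0.79 below the DU mean on the log2 scale, that is 1.73-fold lower (SE 0.24, 95% interval -1.31 to -0.27), and this did not pass the test over all probe sets (adjusted p of limma = 0.208). This fold and the interaction rest on DU arrays near the top of the scale. They also rest on the DU arrays whose high values were assumed to have selected the gene. Such a selection favours a fall in DT vs. DU, so that these tests give no support for a fall. The DT arrays lay below the DU arrays on average within each shared batch. The differences were -0.66 in chip lot 1, -1.04 between DT3 and DU3 in chip lot 3 and -0.67 on scan day 1. The arrays of scan day 1 are among those of chip lot 1. All of these differences rest on the same DU arrays, so that they give no support for a fall either. Arrays that do not overlap between DT and DU were found for 13.9% of all probe sets. In healthy rats the treated arrays differed from the untreated ones by -0.09 (95% interval -0.61 to 0.43, adjusted p of limma = 0.960), and by -0.12 within chip lot 2 and 0.16 within scan day 3. The interaction was -0.70 (95% interval -1.43 to 0.03, adjusted p of limma = 0.596), so that the response to tungstate was not shown to differ between diabetic and healthy rats.

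Prss2, a rat anionic trypsinogen, was also higher in the diabetic pancreas, by a smaller log2 difference. Over all arrays it lay 0.88 to 1.56 log2 units below the brightest probe set, against 3.00 to 4.12 for 1810009J06Rikl in HU. Prss2 thus had less room for a rise, and the sizes of these rises cannot be compared. The log2 intensity of Prss2 was 12.97, 13.19 and 12.93 in HU and 13.18, 13.44 and 13.53 in HT. It was 13.55, 13.51 and 13.38 in DU and 13.64, 13.55 and 13.52 in DT. The HU arrays lay below all DU and DT arrays, whereas HT overlapped with every other group. Of all probe sets, 29.4% did not overlap between DU and HU and 21.1% between DT and HU. The group means were 13.03 ± 0.14 in HU, 13.38 ± 0.19 for HT, 13.48 ± 0.088 in DU and 13.57 ± 0.064 in DT (SD, n = 3 arrays). Prss2 rose by 0.45 in DU vs. HU, or 1.37-fold (SE 0.10, 95% interval 0.23 to 0.67, adjusted p of limma = 0.0318), and by 0.54 in DT vs. HU, or 1.46-fold (adjusted p of limma = 0.0233). Within chip lot 1 the differences were 0.60 and 0.67. Both calls were lost with the chip lot as a block (0.43 and 0.52, adjusted p of limma 0.176 and 0.158) and with a block for scan day (0.32 and 0.37, adjusted p 0.811 and 0.788), and that of DT vs. HU in a fit of the 6 arrays compared (adjusted p 0.0735). They were also lost without single arrays: the adjusted p of DU vs. HU was 0.113 without HU1, 0.0958 without HU3, 0.125 without DU1 and 0.102 without DU2, and that of DT vs. HU was 0.0886 without HU1, 0.0838 without HU3 and 0.0798 without DT1.

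Prss2 was close in the treated and the untreated diabetic arrays, with a difference of 0.09 (95% interval -0.13 to 0.31, adjusted p of limma = 0.868). In healthy rats the treated mean was 0.36 above the untreated mean (95% interval 0.13 to 0.58), with the lowest HT array at 13.18 and the highest HU array at 13.19, and this did not pass the test over all probe sets (adjusted p of limma = 0.871). The difference was 0.23 within chip lot 2 and 0.38 within scan day 3. The interaction was -0.27 (adjusted p of limma = 0.652).

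Prss1, another anionic trypsinogen of the rat, stayed within a narrow range. Its log2 intensity was 14.12, 14.16 and 14.18 in HU, 14.12, 14.14 and 13.96 in HT, 14.04, 14.12 and 14.04 in DU and 14.12, 14.19 and 14.00 in DT. The DU arrays lay just below the HU arrays, a lack of overlap found for 29.4% of all probe sets, and the other groups overlapped. The differences were -0.09 in DU vs. HU (95% interval -0.26 to 0.08, adjusted p of limma = 0.572), 0.04 in DT vs. DU (95% interval -0.13 to 0.21), -0.05 in DT vs. HU (95% interval -0.22 to 0.12) and -0.08 in HT vs. HU. The intensities lay only 0.287 to 0.565 log2 units below the brightest probe set of each array, where the scale leaves little room for a rise. Prss3b, the rat cationic trypsinogen, which carries Prss3 as a synonym, lay 0.13 to 0.30 below the brightest probe set. It ranged from 14.21 to 14.34 in HU and from 14.17 to 14.27 in DU, and differed by -0.09 in DU vs. HU (95% interval -0.24 to 0.07), by 0.02 in DT vs. DU and by -0.07 in DT vs. HU.

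Spink1, the Kazal-type trypsin inhibitor of acinar cells, was read by 3 probe sets that the annotation ties to the same sequence record, and their values did not run in parallel. 1387193_a_at was at 13.12, 12.87 and 13.22 in HU, 13.10, 13.15 and 12.55 in HT, 13.35, 13.31 and 12.81 in DU and 13.19, 13.11 and 12.86 in DT. The groups overlapped, and the difference was 0.09 in DU vs. HU (95% interval -0.29 to 0.46, adjusted p of limma = 0.820), -0.10 in DT vs. DU and -0.14 in HT vs. HU. 1368447_x_at was at 12.57, 12.37 and 12.75 in HU, 12.60, 12.66 and 12.11 in HT, 13.02, 13.01 and 12.56 in DU and 12.77, 12.58 and 12.36 in DT. It differed by 0.30 in DU vs. HU (95% interval -0.06 to 0.66, adjusted p of limma = 0.344) and by -0.29 in DT vs. DU (95% interval -0.65 to 0.07, adjusted p of limma = 0.645). These probe sets moved together over the 12 arrays (Pearson's r = 0.93), and in both the chip lot 3 array was the lowest of HT, of DU and of DT. The lot 3 array was also the lowest of those groups for Prss1, DU1 and DU3 being alike at 14.04, and the part of the chip lot in the spread was not tested.

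The remaining Spink1 probe set, 1368446_at, which lay at percentiles 72.8 to 92.9 of the arrays, rose in the diabetic untreated pancreas. It was at 8.02, 7.79 and 7.54 in HU, 7.97, 7.85 and 7.79 in HT, 8.09, 8.77 and 8.67 in DU and 8.09, 8.09 and 8.02 in DT. DU2 and DU3 stood apart, while DU1 lay just above the highest HU array and level with DT1 and DT2. The group means were 7.78 ± 0.24 in HU, 7.87 ± 0.087 for HT, 8.51 ± 0.37 in DU and 8.06 ± 0.041 in DT (SD, n = 3 arrays). The rise in DU vs. HU was 0.73, or 1.66-fold (SE 0.16, 95% interval 0.40 to 1.06, adjusted p of limma = 0.0224), and the difference in DT vs. DU was -0.45 (95% interval -0.78 to -0.11, adjusted p of limma = 0.306). In DT vs. HU it was 0.28 (95% interval -0.05 to 0.62, adjusted p of limma = 0.379), with arrays that narrowly did not overlap, as for 21.1% of all probe sets. DU1 shared its scan day with DT1 and DT2, and the difference from these was -0.004 on that day, against -0.65 between DT3 and DU3 in chip lot 3. Without DU1 the difference in DT vs. DU was -0.66 and passed the test (adjusted p of limma = 0.0290). The call of DU vs. HU was lost with a block for scan day (0.59, adjusted p of limma = 0.511), in a fit of the 6 arrays compared (0.0614) and without HU2 (0.0639), HU3 (0.0783), DU2 (0.0946) or DU3 (0.0777). Over the 12 arrays its correlation was 0.14 with 1387193_a_at and 0.40 with 1368447_x_at. Thus 1 of the 3 probe sets of Spink1 rose in DU vs. HU and the others did not pass the test. Which transcripts each of them takes up, those of the relative Spink1l among them, was not tested. A rise of Spink1 itself is uncertain to that extent.

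Klk1, a trypsin-like protease of the kallikrein family, gave a signal below the median of every array, at percentiles 32.1 to 44.6. The gene table lists Klk1c7 and RGK-7 among its synonyms, and the signal does not stand for other kallikreins. Klk1b3, for example, lay at percentiles 99.5 to 99.7. The log2 intensity of Klk1 was 6.09, 6.23 and 6.01 in HU, 6.29, 6.17 and 6.45 in HT, 6.21, 6.21 and 6.36 in DU and 5.91, 6.20 and 6.20 in DT. The difference was 0.15 in DU vs. HU (95% interval -0.07 to 0.38, adjusted p of limma = 0.435), -0.16 in DT vs. DU (95% interval -0.38 to 0.07, adjusted p = 0.705), -0.005 in DT vs. HU and 0.20 in HT vs. HU (adjusted p = 0.871). The DT arrays lay just below the DU arrays, a lack of overlap found for 13.9% of all probe sets, and all other groups overlapped.

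**Figure D2:**
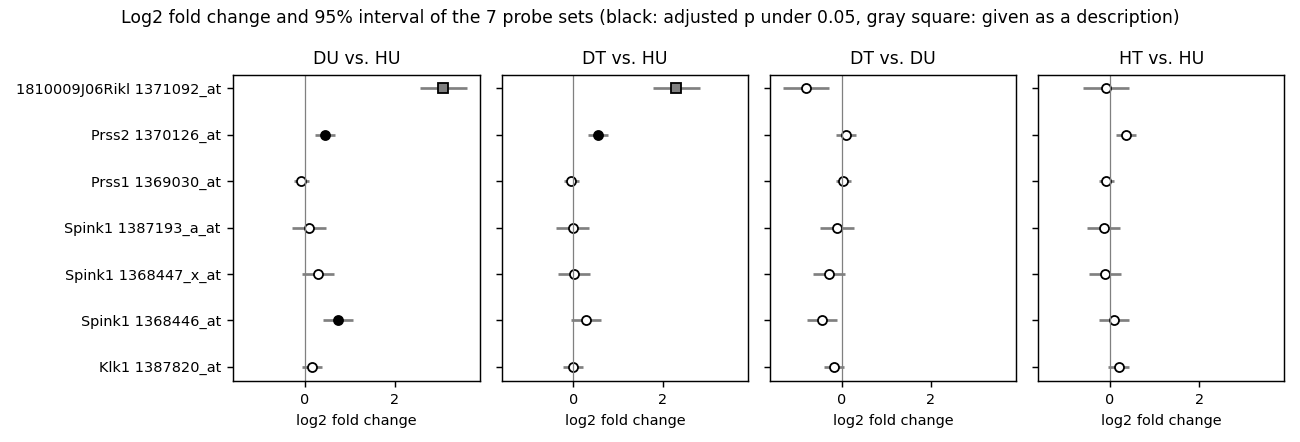
Log2 fold change (horizontal axis, points) with its 95% interval (bars) for each of the 7 probe sets in the 4 comparisons. Black points passed an adjusted p of 0.05, white points did not, and the gray squares of 1810009J06Rikl are descriptions whose bars are no test. 1810009J06Rikl stood at 3.09 and 2.30 against HU, Prss2 at 0.45 and 0.54, and the interval of Prss1 held 0 in every comparison.

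Of the 6 probe sets other than 1810009J06Rikl, 2 passed the threshold in DU vs. HU (Prss2 and Spink1 1368446_at), against 3.2% of all probe sets, and 1 in DT vs. HU (Prss2), against 1.32%. All of these were rises, which 1.47% and 0.756% of all probe sets showed. A B-statistic above 0 was reached by 1 of the 6 in DU vs. HU (Spink1 1368446_at), against 1.82% of all probe sets, and by 1 in DT vs. HU (Prss2), against 1.18%. Since the genes were listed with these values known, nothing is read from the counts. In DT vs. DU none of the 7 passed the test of limma, against 1.12% of all probe sets, 2 were under an unadjusted p of 0.05, as were 9.89% of all probe sets, and none had a B-statistic above 0, which 1.05% of all probe sets had. In HT vs. HU the counts were 0, 1 and 0, against 0.0063% of all probe sets by the adjusted p and 5.41% by the unadjusted p, and in the interaction 0, 2 and 0, against 0.422% by the adjusted p, 8.75% by the unadjusted p and 0.58% by the B-statistic. For the other comparisons an unadjusted p under 0.05 was found in 20.2% of all probe sets for DU vs. HU and 16.6% for DT vs. HU. The median log2 fold change of the 7 probe sets was 0.30 for DU vs. HU, -0.16 for DT vs. DU, 0.01 for DT vs. HU and -0.08 for HT vs. HU, beside -0.02, 0.00, -0.02 and 0.00 for all probe sets. DU vs. HU and DT vs. HU share the HU arrays, so that their values are not independent.

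The zymogens that trypsin activates stayed level. Of 9 genes, none passed the test of limma in any comparison, and none had a B-statistic above 0. In DT vs. DU 1 was under an unadjusted p of 0.05, as were 9.89% of all probe sets, and none in the others. Their log2 fold changes in DU vs. HU lay between -0.14 and 0.08, with a median of 0.02. The smallest p-values were those of Pla2g1b, pancreatic phospholipase A2, at -0.14 (95% interval -0.31 to 0.03), Cpb1, procarboxypeptidase B, at -0.10 (95% interval -0.26 to 0.05) and Clps, colipase, at 0.08 (95% interval -0.07 to 0.23). All group means of these genes lay between 13.96 and 14.49, near the top of the scale, as for Prss1.

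Among genes of trypsinogen activation and breakdown, 1 of 8 probe sets fell in DU vs. HU and 1 rose in DT vs. DU and in DT vs. HU. Ctsl, cathepsin L, a lysosomal protease that degrades trypsinogen, was at 11.27, 11.32 and 11.44 in HU and at 10.87, 10.81 and 10.74 in DU by its probe set 1370244_at. It fell by 0.53 (95% interval -0.78 to -0.28, adjusted p of limma = 0.0257), and the groups did not overlap, as for 29.4% of all probe sets. Its other probe set, 1370245_at, lay near the array medians and differed by 0.30 (adjusted p of limma = 0.159), so that the probe sets of Ctsl had opposite signs. Lgmn, legumain, a lysosomal endopeptidase that processes cathepsins, was at 8.47, 8.69 and 8.46 in DU and at 9.13, 9.02 and 8.92 in DT. It rose by 0.49 in DT vs. DU (adjusted p of limma = 0.0159) and by 0.61 in DT vs. HU (adjusted p of limma = 0.0058). Ctsb, cathepsin B, the main intracellular activator of trypsinogen, differed by 0.01 in DU vs. HU (95% interval -0.24 to 0.26). It was at 10.13, 10.13 and 10.23 on the DU arrays and lower, at 9.69, 9.56 and 10.07, on the DT arrays. This difference of -0.39 did not pass the test of limma. The HU arrays, at 10.04, 10.17 and 10.25, overlapped with those of DT. An unadjusted p of limma under 0.05 was reached by 4 of these 8 probe sets for DU against HU, and by 20.2% of all probe sets. The counts were 2 for DT against DU, beside 9.89% of all probe sets, and 5 for DT against HU, beside 16.6%.

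Of 20 probe sets for other inhibitors of trypsin-like proteases, 0 passed the test of limma in DU vs. HU (8 at an unadjusted p under 0.05, against 20.2% of all probe sets, and 0 with a B-statistic above 0) and 1 fell in each of DT vs. DU and DT vs. HU. Serping1, the C1 inhibitor, was at 9.10, 8.84 and 9.16 in DU and at 8.03, 7.70 and 8.59 in DT, and fell by 0.92 (adjusted p of limma = 0.0350). In HU Serping1 was at 8.41, 8.09 and 8.73, so that the DT arrays overlapped with the healthy untreated ones. Itih4, an inter-alpha-trypsin inhibitor heavy chain, fell by 0.55 in DT vs. HU (adjusted p of limma = 0.0456). Spink1l, a close relative of Spink1, differed by -0.02 in DU vs. HU (95% interval -0.35 to 0.30). Of 9 probe sets of stellate cell and fibroblast markers, 2 fell in DT vs. HU and none passed the test of limma in DT vs. DU (4 at an unadjusted p under 0.05, against 9.89% of all probe sets). Their summed level ran from 10.74 to 11.54 for DT, 11.29 to 11.66 for DU and 11.49 to 11.91 for HU. The part of these cells in Serping1 and Itih4 was not tested.

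In the kallikrein and kinin system, 1 of 18 probe sets changed in DU vs. HU and none in the other comparisons, where none had a B-statistic above 0. At an unadjusted p under 0.05 there were 2, 1 and 0 in DT vs. DU, DT vs. HU and HT vs. HU. The shares of all probe sets were 9.89%, 16.6% and 5.41%. Cpn1, a subunit of the carboxypeptidase N that inactivates kinins, was at 8.58, 8.82 and 8.74 in HU and at 8.13, 8.28 and 8.25 in DU, and fell by 0.49 (adjusted p of limma = 0.0166). Klk1b3, a glandular kallikrein, lay at percentiles 99.5 to 99.7 of the arrays and differed by -0.20 in DU vs. HU (95% interval -0.56 to 0.17). None of the 4 protease-activated receptors, which trypsin and related proteases cleave, passed the test of limma in any comparison. At an unadjusted p under 0.05 there was 1 in DT vs. DU, against 9.89% of all probe sets, and 1 in DT vs. HU, against 16.6%. None of these receptors had a B-statistic above 0. The differences in DU vs. HU were -0.16 for F2rl1, the receptor that trypsin itself activates, -0.13 for F2rl2 and 0.03 for F2rl3. Of 27 probe sets for other trypsin-like serine proteases, 1 rose in DU vs. HU, St14 (matriptase), by 0.47 (adjusted p of limma = 0.0318). None passed in the other comparisons, where none had a B-statistic above 0. At an unadjusted p under 0.05 there were 4, 6 and 2 in DT vs. DU, DT vs. HU and HT vs. HU, beside the same shares of all probe sets, 9.89%, 16.6% and 5.41%.

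**Figure D3:**
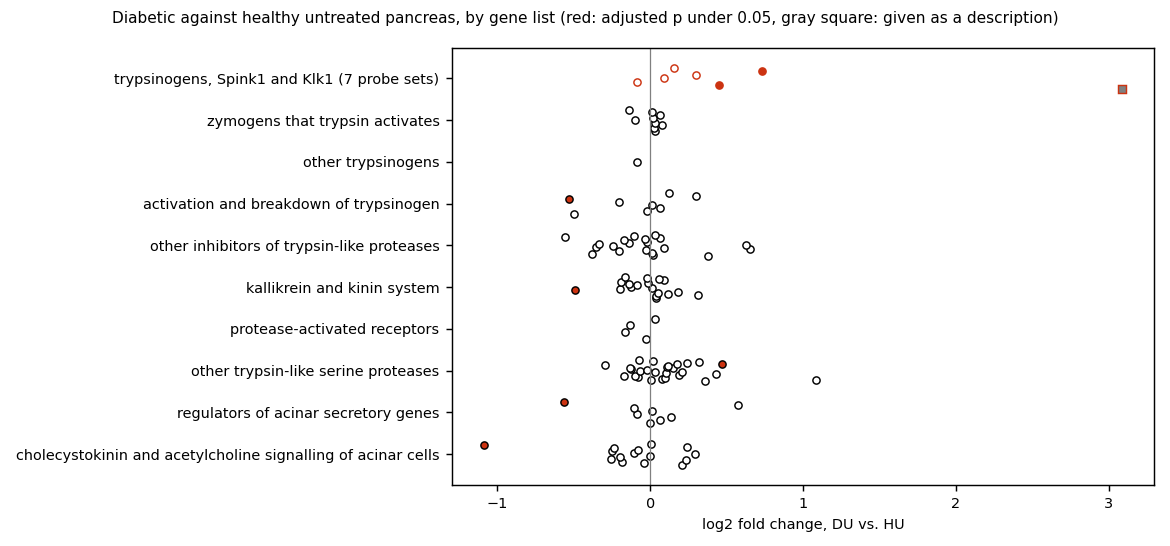
Log2 fold change in DU vs. HU (horizontal axis) of every probe set of the 7 members and of the related gene lists (rows). Red fill marks an adjusted p under 0.05, and the gray square is 1810009J06Rikl, a description. The 9 zymogens that trypsin activates lay between -0.14 and 0.08, while 1810009J06Rikl stood at 3.09.

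Among the regulators of acinar secretory genes, Xbp1, a transcription factor of the secretory pathway and the unfolded protein response, was at 11.84, 11.81 and 11.74 in HU, 11.19, 11.17 and 11.34 in DU and 12.06, 12.06 and 11.99 in DT. It fell by 0.57 in DU vs. HU (adjusted p of limma = 0.0011) and rose by 0.81 in DT vs. DU (adjusted p of limma = 6.2e-05). Its direction in diabetes was opposite to that of 1810009J06Rikl and Prss2, and in DT it lay above DU while 1810009J06Rikl lay below. The other 7 probe sets of this list did not pass in these comparisons. Ptf1a, the subunit of the factor PTF1 whose letters were searched in the promoters, was at 9.15, 9.34 and 9.50 in HU and at 10.08, 9.97 and 9.66 in DU, a difference of 0.57 (95% interval 0.21 to 0.94, adjusted p of limma = 0.0831).

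A list of receptors and signalling genes of secretagogues, which drive the release of trypsinogen, held 15 probe sets. Those for cholecystokinin, the cholecystokinin receptor Cckbr, the acetylcholine receptors Chrm1 and Chrm3 and their signalling genes did not pass the test of limma in DU vs. HU or DT vs. DU. Cckar, the other cholecystokinin receptor, had no probe set in the list, so that nothing can be said of it. The 1 that passed in these comparisons was Sctr. Sctr, the receptor of secretin, a hormone that acts mainly on duct cells, was at 8.15, 8.39 and 8.41 in HU, 6.92, 7.25 and 7.51 in DU and 8.17, 8.08 and 8.12 in DT. It fell by 1.09 in DU vs. HU (adjusted p of limma = 0.0011) and rose by 0.90 in DT vs. DU (adjusted p of limma = 0.0069).

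The genes whose values followed each member most closely were sought among 1837 probe sets with 1 symbol, a mean above the median of all probe sets and an SD of at least 0.2 over the arrays. All points share the 12 arrays, and the correlations are descriptions. They hold the differences between the 4 groups, and variation within the groups was not looked at apart. Those most alike to 1810009J06Rikl were Ahcy (Pearson's r = 0.95), Slc25a3 (0.94) and Pdzrn3 (0.94). Ahcy, which breaks down S-adenosylhomocysteine, was at 10.16, 10.40 and 9.995 in HU and at 11.29, 10.96 and 11.20 in DU, and Slc25a3 is the mitochondrial phosphate carrier. The genes most alike to Prss2 were Cdkal1 (0.93), Tmem109 (0.89) and Cdk18 (0.88). For Prss1 they were Rubcn (0.87), Traf3 (0.87) and Pomk (0.86), for Spink1, by its probe set 1387193_a_at, Pcmt1 (0.94), Etnk1 (0.86) and Serinc1 (0.86), and for Klk1 Kcnh1 (0.92), Gpr137 (0.87) and Rpia (0.82). No gene was named for more than 1 member. Between the members, 1810009J06Rikl and Prss2 correlated at 0.68, 1810009J06Rikl and Spink1 1368446_at at 0.74, and 1810009J06Rikl and Prss1 at -0.21.

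**Figure D4:**
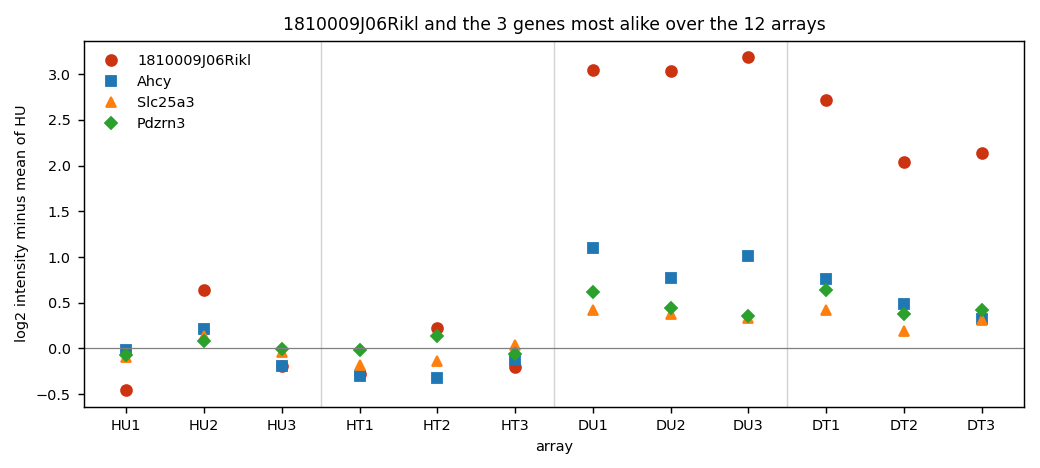
Log2 intensity minus the mean of the 3 HU arrays (vertical axis) on each of the 12 arrays (horizontal axis) for 1810009J06Rikl and the 3 genes whose values were most correlated with it. All 4 genes were higher in the DU and DT arrays than on average in HU, and the mean difference of 1810009J06Rikl was 3.09 in DU and 2.30 in DT.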

How the data were processed

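The authors made the deposited values with RMA in the affy package of Bioconductor (version not given in the sources used here), as log2 intensities per probe set. Scan day and chip lot were read from the deposited instrument records and coded. The table held 15923 probe sets, 57 of them controls that were dropped, and the platform annotation gave exactly 1 symbol for 12783 of the other 15866. A mean per group was fitted over the 12 arrays with limma 3.58.1 in R 4.3.3, with Benjamini-Hochberg adjustment within each contrast. The fit was tested on simulated data. Precision is limited by the number of arrays, and p-values measure the spread between pools, not rats. The members and gene lists were chosen with earlier results of these data known. Genes named were the members, list genes with an adjusted p under 0.05 (or up to 3 with the smallest p), and for each member the 3 most correlated genes. The alternatives were quantile normalization, median centring, a filter on dim probe sets, only the 6 arrays compared, trend and robust variance, blocks for scan day, for chip lot and for replicate number, the methods' criterion (a B-statistic above 0, prior proportion 0.01) and leaving out each array. Promoters of 4 member genes were matched in RefSeq (GRCr8).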

Additional observations from a re-analysis of the deposited data

How the results depend on the processing

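The counts here include 1810009J06Rikl, whose differences from HU are a description, so that its place in them is no support. The count of member probe sets past the threshold in DU vs. HU was 3, and it was 2 in a fit of the 6 arrays compared (without Spink1 1368446_at), 2 with the chip lot as a block (without Prss2), 0 after blocking on scan day and 1 to 3 when each array was left out in turn. In DT vs. HU it was 2, and it was 1 in a fit of the 6 arrays compared, 1 with the chip lot as a block, 0 after blocking on scan day and 1 to 2 without single arrays. In DT vs. DU it was 0, and 0 to 1 without single arrays, the 1 being Spink1 1368446_at without DU1. The cause of these changes was not tested, except that neither DU nor DT shared a scan day with HU, so that the scan day block leaves little to compare. Median centring, quantile normalization, a filter on dim probe sets and limma with trend and robust changed no call of the members, and no fold change of a called member changed sign in any setting. By the B-statistic 2 passed in DU vs. HU, without Prss2. The replicate numbers in the titles did not pair the arrays: over 18 pairs of arrays with the same number the correlation of their deviations from the group means lay between -0.29 and 0.31, and 5 were above 0.1. With the replicate block the counts were 3 for DU vs. HU, 0 for DT vs. DU, 2 for DT vs. HU, 0 for HT vs. HU and 0 for the interaction, as without it. Signals near the top of the scale (Prss1 throughout, 1810009J06Rikl in DU and, less so, Prss2) and below the array median (Klk1) limit what could be seen.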
